A study of Mus musculus with 12 samples.

Results

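The transcripts examined here encode the enzymes and carriers that take glucose to pyruvate and lactate, feed pyruvate into the mitochondrion, run the tricarboxylic acid (TCA) cycle and branch into the pentose phosphate pathway. They were chosen as a list of 48 gene symbols, and 49 gene identifiers in the count tables carried those symbols, because Aldoa is annotated under 2 identifiers, out of 18278 genes listed. All 49 passed the filter on low counts. Poly(A)-selected, stranded RNA-seq was deposited for 12 libraries of tumourspheres, cells grown for 6 days in suspension in serum-free medium with EGF and bFGF. LM1 and LM9 are mouse lines grown out from lung metastases in immunodeficient NOD/SCID mice, and their parent, a mammary tumour cell line driven by mutant human PIK3CA (H1047R) under the CAG promoter, had been mutagenised with the piggyBac transposon. LM1 Nfib KO and LM9 Nfib KO are labelled as CRISPR-Cas9 knockouts of Nfib, a transcription factor of the nuclear factor I family. Each knockout is described as a pool of single clones, 5 for LM1 and 2 for LM9, called the LM1 pool and the LM9 pool below. The paper describes an immunoblot screen of the clones before pooling, and NFIB staining of tumours grown from the knockout cells. Each of the 4 groups has 3 libraries, and no label says that they came from separate cultures, so the p-values below measure the spread between libraries only. The question was which of these enzymes differ in transcript level between each line and its knockout pool, between the lines, and between the pools.

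Glycolysis splits glucose into pyruvate in the cytosol, with hexokinase, phosphofructokinase and pyruvate kinase as its controlled steps. Pyruvate is either reduced to lactate, which leaves the cell through proton-linked monocarboxylate transporters, or is carried into the mitochondrion, where the pyruvate dehydrogenase complex makes acetyl-CoA and pyruvate carboxylase makes oxaloacetate. The pentose phosphate pathway draws on glucose-6-phosphate to supply NADPH and ribose. Several steps have isoforms encoded by separate genes and used by different tissues, and tumour cells are known for high glycolytic flux and for switching between these isoforms.

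Before the members are described, some features of the libraries themselves have to be given. Library totals lay between 29249075 and 37162594 counts. Nfib was not lower under the knockout label, at 218 ± 22.6 CPM (counts per 1000000, scaled by trimmed mean of M values; mean ± SD, n = 3) in LM1 and 154 ± 48.8 in LM9, against 235 ± 5.68 in the LM1 pool and 240.03 ± 11.2 in the LM9 pool (log2 fold change 0.11, adjusted p = 0.53, and 0.68, adjusted p = 0.0026, or 0.93 without LM9 replicate 1); counts summed over a whole gene do not show whether a short edit is present. The 6 knockout-labelled libraries resembled each other (Pearson's r of log2 CPM across genes 0.996 for every pair) and stood apart from the 6 parental ones (0.727 to 0.742). Summed CPM of 7 epithelial markers was 752 to 1378 in the parental libraries and 8.60 to 9.09 under the knockout label, where Cdh1, Krt8 and Krt18 were at or near 0. Krt14 of the same list went the other way, from a mean of 0.058 CPM in LM1 and 0.145 in LM9 to 6.79 and 6.51 in their pools, and made up most of what was left. Summed CPM of 7 fibroblast markers was 174 to 311 against 1309 to 1402, the latter mostly Col1a1 (6.10 in LM1 and 3.25 in LM9, against 958 and 899 in their pools), whereas Dcn of that list was lower in the pools (90.7 and 38.4 against 11.5 and 12.3). The sum of 4 endothelial markers was at most 2.64 against 369 to 377, with Kdr and Cdh5 rather than Pecam1 making up the latter. Only 2 of 6 leukocyte markers were listed, and they moved in opposite directions: Cd68 was at 459 CPM in LM1 and 523 in LM9 against 101 and 98.7 in their pools, and Csf1r at 0 and 0.0112 against 12.4 and 12.3. The counts therefore leave in doubt whether these 6 libraries are what their labels say, and LM1 pool and LM9 pool name labels throughout. These lists move with every knockout-label comparison below, and their part in it was not tested. In bulk RNA, fewer cells of a type and less RNA per cell cannot be told apart. LM9 replicate 1 resembled the LM1 libraries (r = 0.995 to 0.996) more than LM9 replicates 2 and 3 (r = 0.968 to 0.970), so LM9 fold changes are given with and without it, apart from those of Slc16a3 and Ldhb, whose folds rest on groups at or near 0. A value in square brackets is the LM9 log2 fold change refitted without LM9 replicate 1, and its own value stands first wherever the LM9 libraries are listed. One spread per gene was estimated over all 12 libraries. The SE and p-values of every comparison fitted to all libraries, that of LM1 included, therefore carry the division within LM9.

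The 5′ flanks of 7 members with large differences in both lines are shown first, since members that move together invite a look at their promoters. RefSeq promoter windows on GRCm38.p6 were found for 47 of the 48 symbols (70 windows, because some genes have several starts), and the 250 bases before each start were searched on both strands for ACGTG and GCGTG, the core letters recognised by hypoxia-inducible factors. The sequences below read 5′ to 3′ on the gene's own strand, and the core letters are in capitals on whichever strand they occur; the capitals in CACGTG mark an E-box, which contains ACGTG on both strands. The first 3 genes were higher under the knockout label and the other 4 lower.
Slc16a3, chr11:120948817-120949066, plus strand: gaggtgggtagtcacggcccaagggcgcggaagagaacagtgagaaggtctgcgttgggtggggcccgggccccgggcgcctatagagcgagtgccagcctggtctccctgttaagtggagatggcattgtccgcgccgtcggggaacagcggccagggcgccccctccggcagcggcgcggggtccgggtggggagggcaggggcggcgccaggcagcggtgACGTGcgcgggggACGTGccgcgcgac
Pcx, chr19:4510222-4510471, plus strand: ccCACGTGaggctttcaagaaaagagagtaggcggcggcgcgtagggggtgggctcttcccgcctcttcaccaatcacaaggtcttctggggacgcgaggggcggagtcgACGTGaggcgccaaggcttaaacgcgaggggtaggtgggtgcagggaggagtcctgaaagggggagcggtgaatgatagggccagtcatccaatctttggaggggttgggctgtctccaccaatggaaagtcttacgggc
G6pdx, chrX:74428881-74429130, minus strand: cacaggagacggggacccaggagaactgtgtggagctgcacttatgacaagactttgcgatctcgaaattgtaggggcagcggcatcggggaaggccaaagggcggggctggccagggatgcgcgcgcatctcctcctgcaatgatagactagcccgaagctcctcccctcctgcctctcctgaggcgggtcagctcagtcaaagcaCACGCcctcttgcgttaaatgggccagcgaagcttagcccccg
Aldoc, chr11:78322823-78323072, plus strand: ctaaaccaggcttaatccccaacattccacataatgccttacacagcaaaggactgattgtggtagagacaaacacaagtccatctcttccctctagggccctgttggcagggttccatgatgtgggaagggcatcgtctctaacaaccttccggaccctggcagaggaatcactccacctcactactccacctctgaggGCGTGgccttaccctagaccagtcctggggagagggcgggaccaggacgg
Ldhb, chr6:142507958-142508207, minus strand: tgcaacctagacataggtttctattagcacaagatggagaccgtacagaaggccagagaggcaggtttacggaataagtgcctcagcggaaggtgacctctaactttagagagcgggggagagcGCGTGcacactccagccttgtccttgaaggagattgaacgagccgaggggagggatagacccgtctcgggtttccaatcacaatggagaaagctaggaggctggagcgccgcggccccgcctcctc
Eno2, chr6:124769674-124769923, minus strand: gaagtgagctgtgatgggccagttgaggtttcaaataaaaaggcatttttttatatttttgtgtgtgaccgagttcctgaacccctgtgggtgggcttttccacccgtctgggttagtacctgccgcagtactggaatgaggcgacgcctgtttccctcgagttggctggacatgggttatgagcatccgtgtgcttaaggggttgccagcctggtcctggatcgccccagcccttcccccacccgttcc
Tkt, chr14:30548881-30549130, plus strand: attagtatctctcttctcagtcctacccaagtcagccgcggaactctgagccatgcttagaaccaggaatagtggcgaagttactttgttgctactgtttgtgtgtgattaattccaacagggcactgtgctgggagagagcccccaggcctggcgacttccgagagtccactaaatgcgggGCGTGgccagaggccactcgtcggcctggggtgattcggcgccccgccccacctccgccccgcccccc

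ACGTG or GCGTG occurred in 15 of 21 windows of members more than 2-fold lower in both lines (71.4%), in 7 of 10 windows of those more than 2-fold higher (70.0%), and in 28 of 39 windows of the others (71.8%). Of all 32851 windows in the table, 38.6% held these letters. Counted by window, the pooled share was thus close to the same whichever way the members moved. Taken separately, ACGTG was in 6 of 21 lower, 2 of 10 higher and 19 of 39 other windows. GCGTG was in 11 of 21, 5 of 10 and 19 of 39, so the likeness did not hold for ACGTG. Some genes have several windows, a few of them overlapping, so these shares and those below count windows and not genes. The Eno2 window printed above held neither, and Aldoc and several other genes have further windows not printed. TTGGC, the recognition letters of one nuclear factor I monomer, was present in 9 of 21 windows of the lower members (42.9%), in 7 of 10 of the higher members (70.0%), in 27 of 39 of the others (69.2%) and in 41.5% of all windows, so the higher members were like those that moved less. The full palindromic site was in 0 of the 70 member windows. A match of letters is not a bound site.

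Of the 49 identifiers, 23 were higher and 22 lower in LM1 Nfib KO than in LM1 (limma-voom, adjusted p under 0.05), where 43.1% of all 18176 genes tested were higher and 38.1% lower. In LM9 Nfib KO against LM9, 19 were higher and 24 lower, against 44.3% and 38.0% of all genes. As shares of the members these counts are 46.9% higher and 44.9% lower in the LM1 comparison, and 38.8% and 49.0% in the LM9 comparison. With a log2 fold change beyond 1 also required, 11 were higher and 16 lower in the LM1 comparison (29.8% and 25.2% of all genes), and 10 higher and 16 lower in the LM9 comparison (31.3% and 26.1%). The median log2 fold change over the members was 0.12 and -0.17 [-0.29], beside 0.08 and 0.13 [0.16] over all genes. Called in both lines were 41 members, 19 higher and 22 lower, and 0 with opposite signs, beside 39.6%, 33.5% and 0.0385% of all genes. Called in the LM1 comparison alone were 4 members, in the LM9 comparison alone 2 and in neither 2 (8.11%, 9.25% and 9.55% of all genes). Without LM9 replicate 1 the LM9 comparison gave 19 higher and 27 lower, beside 47.7% and 41.2% of all genes; the 3 added were Pgk1, Pkm and Idh3g. Scaling by total counts in place of TMM moved the median over all genes to 0.31 and 0.49 and that over the members to 0.34 and 0.18, and turned the sign of 8 members with small differences in at least one line: Pfkm, Pgk1, Pkm, Ldha, Idh3g, Ogdh, Suclg2 and Fh1. The direction differed from step to step and between isoforms of a step, as the plot of each library against the LM1 mean shows.

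**Figure D1:**
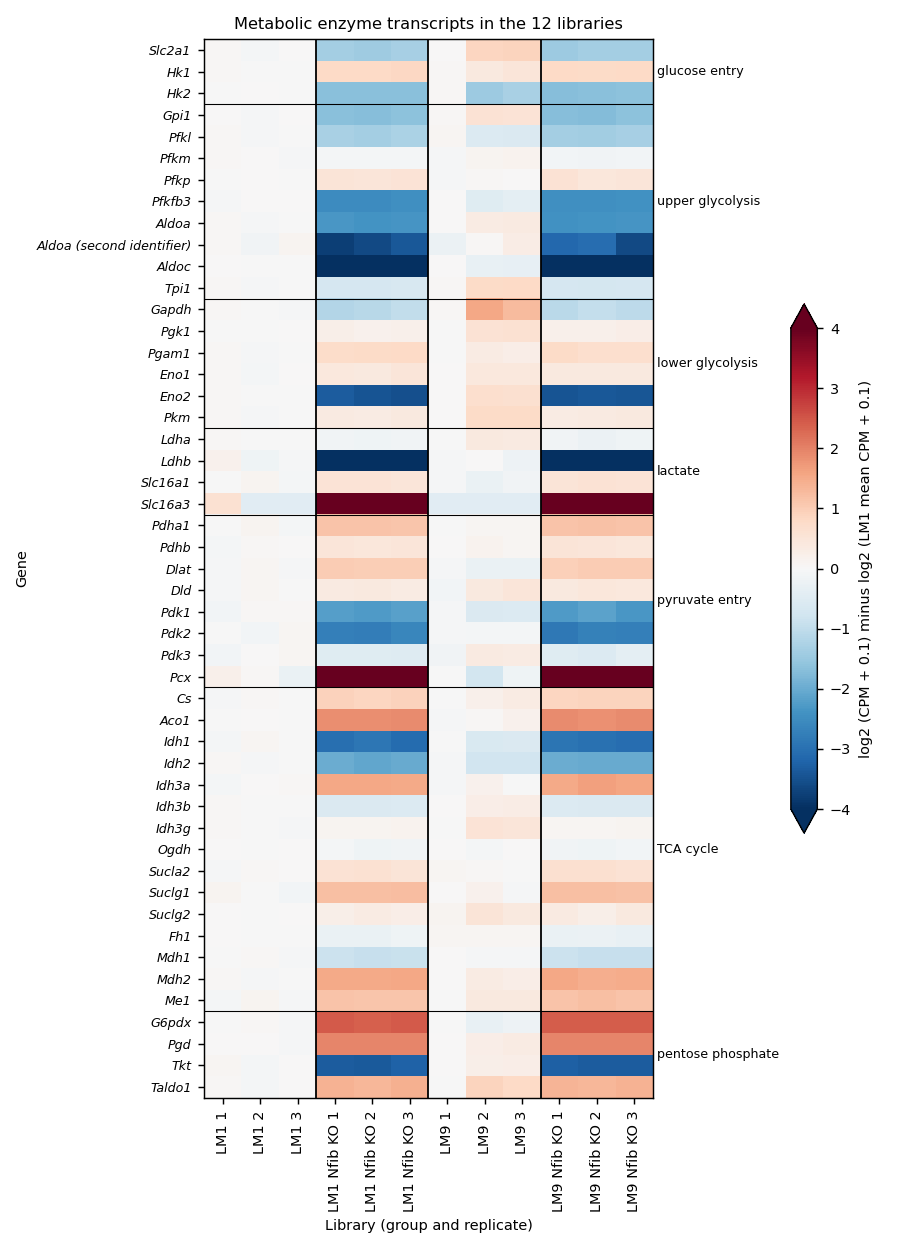
Colours show log2 (CPM + 0.1) of each gene (rows, by pathway step) in each of the 12 libraries (columns) minus the same for the mean of LM1, with the scale ending at -4 and 4. The 6 knockout-labelled columns look alike, with Slc16a3 and Pcx beyond the upper end and Aldoc and Ldhb beyond the lower, and LM9 replicate 1 looks like LM1.

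Glucose entry was lower at the transporter and split at the hexokinases. Slc2a1, which encodes the basal glucose transporter GLUT1, was at 239.8, 219.7 and 230.4 CPM in LM1 and 89.99, 86.6 and 90.6 in LM1 Nfib KO. It was at 231, 421 and 428 in LM9 and 83.8, 90.4 and 88.7 in LM9 Nfib KO. Every knockout-labelled library lay below every parental one, and the log2 fold change (± SE) was -1.37 ± 0.19 in the LM1 comparison and -1.98 ± 0.19 [-2.27] in the LM9 comparison (adjusted p = 3.5e-05 and 1.3e-06). Hk2, the inducible hexokinase of many tumours, was at 289, 293 and 290.2 CPM in LM1 and 91.9, 92.0 and 91.5 in LM1 Nfib KO, a difference of -1.66 ± 0.29 (adjusted p = 0.00023). LM9 was divided at Hk2, with 301, 105 and 119 CPM beside 89.1, 92.2 and 92.7 in LM9 Nfib KO. The LM9 comparison gave -0.77 ± 0.29 (adjusted p = 0.029, 0.111 with only the groups compared, and 0.060 to 0.069 without any one LM9 Nfib KO library) with all libraries and -0.29 ± 0.04 (adjusted p = 1.1e-05) without LM9 replicate 1. Under total-count scaling the LM9 difference of Hk2 was -0.42 and not called (adjusted p = 0.27). Hk1, the housekeeping hexokinase, rose from 253 ± 7.04 to 444 ± 3.92 CPM in the LM1 comparison and from 315 ± 47.5 to 435 ± 5.26 in the LM9 comparison (log2 fold changes 0.81 ± 0.09 and 0.48 ± 0.09 [0.35], adjusted p = 5.7e-06 and 0.00044).

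Among the listed members, upper glycolysis was mostly lower. In the LM1 comparison 7 of 9 identifiers were lower and 1 higher. In the LM9 comparison 8 were lower and 1 higher. Of all genes, 38.1% and 38.0% were lower. The 9 identifiers stand for 8 genes, since Aldoa is counted under both of its identifiers. Among further genes of this step that were not on the list, several rose in both comparisons. Their log2 fold changes were 2.00 and 3.53 for Pfkfb1, 1.63 and 1.85 for Pfkfb2, 0.85 and 0.95 for Pfkfb4, and 2.79 and 2.86 for Tigar. None was called lower with all libraries, and G6pc3 gave 0.34 and -0.15 [-0.45]. Gpi1, glucose-6-phosphate isomerase, was at 938, 899 and 933 CPM in LM1 and 292, 286 and 299 in LM1 Nfib KO. Gpi1 in LM9 was at 945, 1365 and 1353 CPM against 281, 279 and 293 in LM9 Nfib KO. It fell, with log2 fold changes of -1.66 ± 0.12 and -2.08 ± 0.12 [-2.25] (adjusted p = 8.6e-08 and 1.2e-08). Pfkfb3, which makes the phosphofructokinase activator fructose-2,6-bisphosphate, stood at 225, 232 and 234 CPM in LM1 against 40.6, 40.5 and 41.6 in LM1 Nfib KO. Pfkfb3 in LM9 was at 233, 164 and 178 CPM against 41.9, 41.9 and 42.9 in LM9 Nfib KO. Its log2 fold changes were -2.49 ± 0.11 and -2.17 ± 0.11 [-2.01] (adjusted p = 1.6e-09 and 5.4e-09). Pfkfb4, not on the list, went from 54.3 to 97.5 CPM in the LM1 comparison and from 50.1 to 96.7 in the LM9 comparison.

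The 3 phosphofructokinase genes did not move together. Pfkl, the liver-type subunit, was at 220.0, 205 and 211 CPM in LM1 and 85.9, 82.2 and 89.1 in LM1 Nfib KO. Pfkl in LM9 was at 222, 144 and 142 CPM against 82.1, 81.6 and 85.2 in LM9 Nfib KO. The differences were -1.31 ± 0.14 (adjusted p = 3.6e-06) and -1.0 ± 0.14 (adjusted p = 3.8e-05), the latter at the 2-fold boundary and -0.78 ± 0.04 without LM9 replicate 1. Pfkm, the muscle type, was at 122, 121 and 115 CPM in LM1 against 113, 112 and 114 in its pool. Pfkm in LM9 was at 116, 129.6 and 130.4 CPM against 110.4, 109 and 109.9 in its pool. Its differences of -0.08 ± 0.06 (adjusted p = 0.22) and -0.19 ± 0.06 [-0.24] (adjusted p = 0.0099, and 0.056 with only the groups compared) turned positive when libraries were scaled by total counts. Pfkp, the platelet type, was at 123, 128 and 125 CPM in LM1 and 179, 173 and 181 in LM1 Nfib KO. Pfkp in LM9 was at 122, 129 and 127 CPM against 185, 169.6 and 174 in LM9 Nfib KO. It was the member of upper glycolysis that rose, by 0.51 ± 0.05 and 0.48 ± 0.05 [0.46] on the log2 scale (adjusted p = 3e-06 and 5e-06).

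Aldolase cleaves fructose-1,6-bisphosphate, and both of its isoforms on the list fell. Aldoa is the ubiquitous form and, as counted, was the most abundant member per kilobase in LM1. It was at 3116, 2871 and 2984 CPM in LM1 and 592, 567 and 588 in LM1 Nfib KO. The corresponding values were 3029.7, 3761 and 3805 in LM9 and 561, 567 and 586 in LM9 Nfib KO, and the log2 fold changes were -2.36 ± 0.08 and -2.62 ± 0.08 [-2.72] (adjusted p = 2.4e-10 and 1.1e-10). The second Aldoa identifier (ENSMUSG00000114515), annotated directly upstream on the same strand, was at 4.08, 3.59 and 4.26 CPM in LM1 and 3.34, 4.11 and 4.92 in LM9, against 0.201, 0.235 and 0.291 in the LM1 pool and 0.363, 0.389 and 0.234 in the LM9 pool. It fell, with log2 fold changes of -3.97 ± 0.27 and -3.60 ± 0.25 [-3.75] (adjusted p = 6.5e-08 and 9.5e-08). Aldoc, the brain-type aldolase, was at 225, 222 and 223 CPM in LM1 and 2.29, 2.22 and 2.59 in LM1 Nfib KO. Aldoc in LM9 was at 226, 183 and 177 CPM against 2.72, 1.90 and 2.08 in LM9 Nfib KO. Its log2 fold changes were -6.55 ± 0.16 and -6.45 ± 0.17 [-6.34] (adjusted p = 2.6e-11 and 3.2e-11), which is 94.0-fold and 87.6-fold lower as fitted. Tpi1, triosephosphate isomerase, fell less, from 573 ± 13.7 to 359 ± 3.90 CPM in the LM1 comparison (-0.67 ± 0.15, adjusted p = 0.0017) and from 849 ± 225 to 356 ± 4.80 in the LM9 comparison (-1.22 ± 0.15 [-1.46], adjusted p = 1.7e-05).

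**Figure D2:**
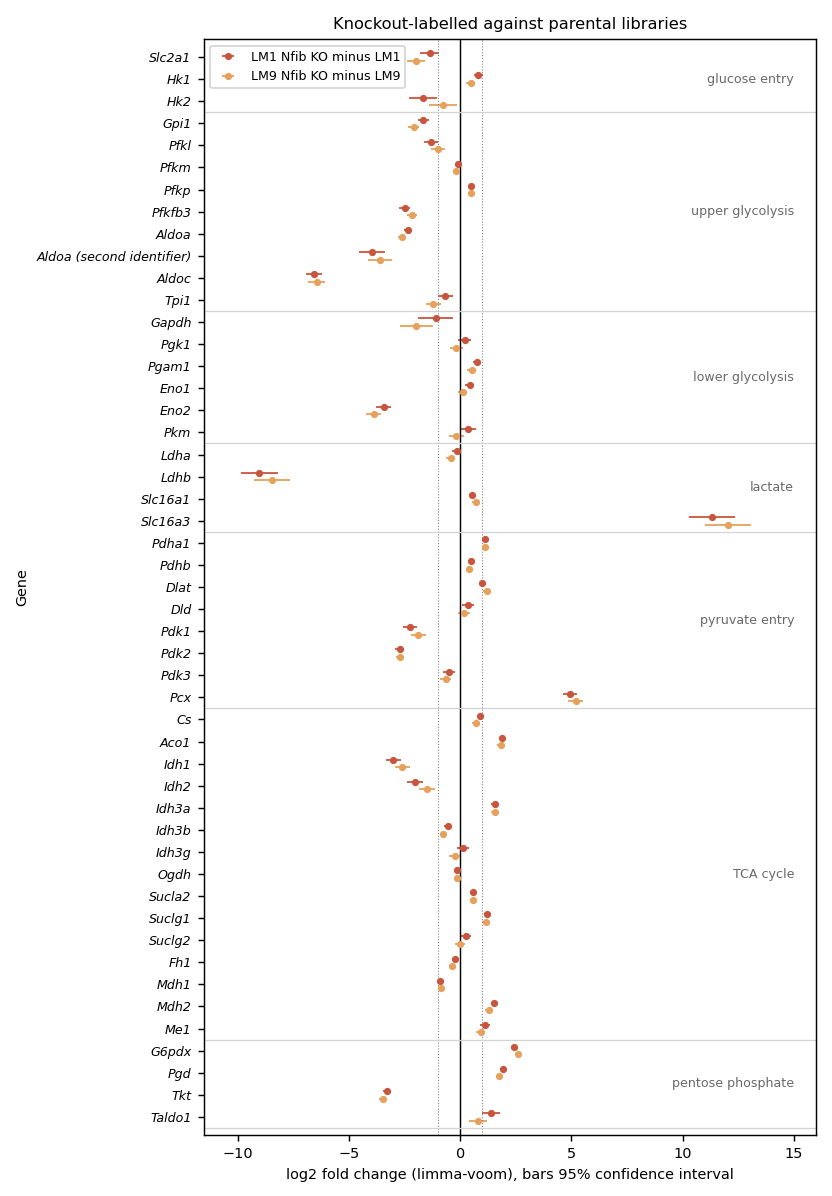
Points give the log2 fold change of each gene (rows, by pathway step) in LM1 Nfib KO against LM1 and in LM9 Nfib KO against LM9, bars the 95% confidence interval, and dotted lines mark -1 and 1. The largest falls are those of Ldhb, Aldoc, the second Aldoa identifier, Eno2 and Tkt, and the largest rises those of Slc16a3 and Pcx, in both comparisons alike.

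Lower glycolysis was read with reservations, because its genes have near-identical copies elsewhere in the genome. Of all windows of 76 bases, the read length, in the longest annotated transcript, 67.5% of Pgk1, 65.2% of Eno1, 40.6% of Pgam1, 22.6% of Gapdh and 19.0% of Pkm were identical to a stretch of another gene's transcripts, and 31 of the 49 identifiers had no such window. Gapdh, glyceraldehyde-3-phosphate dehydrogenase and commonly one of the most abundant transcripts of a cell, was counted at only 15.6, 14.8 and 14.7 CPM in LM1 and 15.6, 44.4 and 36.0 in LM9, against 6.62, 6.92 and 7.50 in the LM1 pool and 7.13, 7.76 and 7.17 in the LM9 pool. Its fitted differences were -1.10 ± 0.35 (adjusted p = 0.013) and -1.97 ± 0.33 [-2.44] (adjusted p = 0.00018), and its level is uncertain. The pseudogene Pgk1-rs7 carried 115% of the CPM of Pgk1 in LM1, Pgam1-ps2 and Pgam1-ps1 50.2% and 31.7% of that of Pgam1, and Eno1b 36.3% of that of Eno1. With these copies and Pgk1-ps1 added to their members, but without Gm4735 and Gm5855, which also share windows with Eno1, the log2 ratio of the summed CPM in LM1 Nfib KO to that in LM1 was 0.22 for Pgk1, 0.75 for Pgam1 and 0.46 for Eno1, and in the LM9 comparison it was -0.19, 0.49 and 0.14.

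As counted, Pgk1, phosphoglycerate kinase, was at 374 ± 3.20 CPM in LM1 and 429.8 ± 9.94 in LM1 Nfib KO (0.20 ± 0.13, adjusted p = 0.18) and at 501 ± 114 in LM9 and 437 ± 12.4 in LM9 Nfib KO (-0.17 ± 0.13 [-0.37], adjusted p = 0.25). The LM1 difference of Pgk1 was called at a like size with only the groups compared (adjusted p = 1.7e-05), with quality weights and without LM9 replicate 1. Pgam1, phosphoglycerate mutase, rose by 0.76 ± 0.08 and 0.51 ± 0.08 [0.40] on the log2 scale (adjusted p = 5.7e-06 and 0.00015). Eno2, the neuronal enolase, has no shared window and was at 292, 282 and 280.3 CPM in LM1 and 28.2, 26.2 and 24.8 in LM1 Nfib KO. LM9 held 290.2, 457 and 443 CPM and LM9 Nfib KO 25.8, 27.0 and 26.4, and the log2 fold changes were -3.43 ± 0.15 and -3.88 ± 0.15 [-4.09] (adjusted p = 1.9e-09 and 7.2e-10). Its ubiquitous counterpart Eno1 was at 348, 316 and 337 CPM in LM1 and 447, 439 and 463 in LM1 Nfib KO. Eno1 in LM9 was at 336, 443 and 442 CPM against 434, 434 and 439 in LM9 Nfib KO. Eno1 rose in the LM1 comparison (0.43 ± 0.09, adjusted p = 0.0012), and its difference in the LM9 comparison was 0.11 ± 0.09 [-0.02] (adjusted p = 0.29) with libraries of the 2 groups overlapping. Under total-count scaling the LM9 difference of Eno1 was 0.46 (adjusted p = 1.6e-05). Pkm, pyruvate kinase, was at 1339, 1249 and 1288 CPM in LM1 and 1672, 1638 and 1709.7 in LM1 Nfib KO (0.37 ± 0.16, adjusted p = 0.049). Pkm in LM9 was at 1304, 2220.4 and 2199 CPM against 1632, 1653 and 1676 in LM9 Nfib KO (-0.17 ± 0.16, adjusted p = 0.35). The Pkm call in the LM1 comparison was lost whenever any of the 6 libraries compared was left out (adjusted p = 0.073 to 0.10), with the replicate block (adjusted p = 0.054) and at a mean of at least 5 CPM (adjusted p = 0.051), and the LM9 difference became -0.41 ± 0.03 (adjusted p = 2.2e-10) without LM9 replicate 1.

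The lactate step held both extremes of the list. Slc16a3, which encodes the lactate exporter MCT4, had 3, 0 and 0 counts in the LM1 libraries and 0 in every LM9 library. Under the knockout label it was at 84.3, 79.1 and 84.8 CPM in LM1 Nfib KO and 78.0, 78.6 and 79.3 in LM9 Nfib KO. It was at least 650.5-fold higher in LM9 Nfib KO than in LM9, taking 3 counts per library as the floor, and 2441-fold higher in LM1 Nfib KO than in LM1, with a 95% counting interval of 835 to 11835 (limma-voom, adjusted p = 1.2e-09 in the LM1 comparison and 7.8e-10 in the LM9 comparison). Such intervals and floors cover counting error only. Ldhb, the lactate dehydrogenase subunit of heart muscle, with 16.4% of its windows shared, went the other way. It was at 7.66, 6.07 and 6.61 CPM in LM1 and 6.51, 6.89 and 5.90 in LM9, and had 0 counts in the 3 LM1 Nfib KO libraries and 1, 0 and 0 in LM9 Nfib KO. The fall was at least 85.5-fold in the LM1 comparison and 760-fold, with a counting interval of 136 to 30029, in the LM9 comparison (adjusted p = 1e-09 and 1.8e-09). The former is a lower bound set by the floor and the latter an estimate, so their sizes are not comparable. Both genes were therefore close to present or absent by label, at depths where 3 counts correspond to 0.0807 to 0.103 CPM of unscaled library totals.

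Their partners moved far less. Ldha, the muscle-type subunit and the bulk of the step, was at 481, 462 and 464 CPM in LM1 and 426, 414 and 429 in LM1 Nfib KO. Ldha in LM9 was at 465, 609.8 and 603 CPM against 425, 401 and 417 in LM9 Nfib KO. The differences were -0.15 ± 0.09 (adjusted p = 0.15) and -0.42 ± 0.09 [-0.55] (adjusted p = 0.001). Under total-count scaling the LM1 difference turned positive, and the LM9 difference was -0.069 and no longer called (adjusted p = 0.25). The LM1 difference was called at a like size with only the groups compared (adjusted p = 0.00034), with quality weights and without LM9 replicate 1. Slc16a1, the broadly expressed lactate transporter MCT1, was at 183, 199.9 and 177 CPM in LM1 and 272, 274 and 261 in LM1 Nfib KO. Slc16a1 in LM9 was at 182, 155 and 169 CPM against 266, 280.4 and 272 in LM9 Nfib KO. It rose by 0.53 ± 0.07 and 0.70 ± 0.07 [0.76] on the log2 scale (adjusted p = 2e-05 and 1.9e-06).

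At pyruvate entry the catalytic genes were higher, except Dld in the LM9 comparison, and the inhibitory kinases lower. Pdha1, the E1 alpha subunit of pyruvate dehydrogenase, was at 116, 127 and 111 CPM in LM1 and 258, 258 and 252 in LM1 Nfib KO. Pdha1 in LM9 was at 117, 125 and 124 CPM against 261, 266 and 259.9 in LM9 Nfib KO. It rose by 1.12 ± 0.06 and 1.10 ± 0.06 [1.08] on the log2 scale (adjusted p = 6.9e-09 and 8.2e-09); 13.8% of its 76-base windows lie in transcripts annotated to Map3k15 on the other strand. Pdhb and Dlat, the E1 beta and E2 subunits, rose by 0.48 ± 0.06 and 0.997 ± 0.07 in the LM1 comparison and by 0.41 ± 0.06 [0.38] and 1.18 ± 0.07 [1.26] in the LM9 comparison (largest adjusted p = 2.7e-05). Dld, the E3 subunit shared with other dehydrogenases, was called in the LM1 comparison (0.37 ± 0.12, adjusted p = 0.015) and not in the LM9 comparison (0.19 ± 0.12 [0.005], adjusted p = 0.17). Under total-count scaling the LM9 difference of Dld was 0.54 and called (adjusted p = 0.00012).

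The pyruvate dehydrogenase kinases phosphorylate and inhibit the complex. Pdk1 was at 35.0, 38.6 and 38.6 CPM in LM1 and 8.03, 7.66 and 8.14 in LM1 Nfib KO. Pdk1 in LM9 was at 36.5, 24.7 and 25.6 CPM against 7.67, 8.37 and 7.33 in LM9 Nfib KO. Pdk2 was at 35.8, 33.6 and 38.2 CPM in LM1 against 5.36, 5.20 and 5.73 in its pool. Pdk2 in LM9 was at 34.7, 33.6 and 33.7 CPM against 4.82, 5.42 and 5.33 in its pool. Pdk3 was at 25.3, 27.4 and 28.5 CPM in LM1 against 19.3, 19.3 and 18.9 in its pool. Pdk3 in LM9 was at 24.5, 34.6 and 33.8 CPM against 19.2, 18.5 and 20.5 in its pool. Pdk1 and Pdk2 were thus reduced several-fold and Pdk3 far less. The log2 fold changes were -2.23 ± 0.14 and -1.88 ± 0.15 [-1.69] for Pdk1, -2.72 ± 0.08 and -2.71 ± 0.09 [-2.69] for Pdk2, and -0.50 ± 0.12 and -0.65 ± 0.12 [-0.82] for Pdk3 (largest adjusted p over these = 0.0023). Pcx, pyruvate carboxylase, which replenishes oxaloacetate, was at 4.04, 3.59 and 2.89 CPM in LM1 and 106, 105 and 109.7 in LM1 Nfib KO. Pcx in LM9 was at 3.44, 2.05 and 3.07 CPM against 104, 103 and 103 in LM9 Nfib KO. Its log2 fold changes were 4.93 ± 0.14 and 5.19 ± 0.15 [5.35] (adjusted p = 5.3e-11 and 7.2e-11), which is 30.5-fold and 36.6-fold higher as fitted, a rise exceeded among the members by Slc16a3 alone.

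The TCA cycle was mixed, with 8 of 15 members higher and 6 lower in the LM1 comparison, and 7 higher and 6 lower in the LM9 comparison, shares near those of all genes (43.1% and 38.1%, and 44.3% and 38.0%). Cs, citrate synthase, rose from 288 ± 9.96 to 536 ± 7.69 CPM and from 326 ± 36.9 to 530.3 ± 7.90 (0.90 ± 0.07 and 0.71 ± 0.07 [0.62], adjusted p = 4.2e-07 and 3.2e-06). Aco1, the cytosolic aconitase that also acts as an iron-regulatory protein, was at 21.6, 22.3 and 21.8 CPM in LM1 and 80.3, 79.0 and 82.0 in LM1 Nfib KO. Aco1 in LM9 was at 21.3, 22.8 and 24.7 CPM against 81.8, 77.6 and 82.2 in LM9 Nfib KO. It rose by 1.88 ± 0.06 and 1.82 ± 0.06 [1.76] on the log2 scale (adjusted p = 2.4e-10 and 3.4e-10).

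The isocitrate dehydrogenases did not move as one. Idh1, the cytosolic NADP-linked enzyme, was at 151, 168 and 156 CPM in LM1 and 19.4, 21.2 and 18.6 in LM1 Nfib KO. Idh1 in LM9 was at 157, 103 and 105 CPM against 20.9, 19.9 and 18.8 in LM9 Nfib KO. Idh2, its mitochondrial NADP-linked counterpart, was at 138, 129 and 132 CPM in LM1 against 33.4, 31.5 and 32.9 in its pool. Idh2 in LM9 was at 129, 79.0 and 78.8 CPM against 33.9, 32.9 and 32.6 in its pool. Both fell, with log2 fold changes of -3.003 ± 0.15 and -2.59 ± 0.15 [-2.39] for Idh1 and of -2.03 ± 0.16 and -1.49 ± 0.16 [-1.25] for Idh2 (largest adjusted p = 3.7e-06). Idh3a, the catalytic subunit of the NAD-linked enzyme of the cycle proper, was at 30.02, 31.9 and 32.7 CPM in LM1 and 92.3, 93.3 and 90.2 in LM1 Nfib KO. Idh3a in LM9 was at 30.5, 35.3 and 31.1 CPM against 91.0, 98.6 and 93.6 in LM9 Nfib KO. It rose by 1.54 ± 0.07 and 1.55 ± 0.07 [1.51] (adjusted p = 1.8e-09 in both comparisons). The other subunits did not follow it: Idh3b fell (-0.56 ± 0.07 and -0.76 ± 0.07 [-0.84], adjusted p = 1.5e-05 and 1.1e-06), and Idh3g gave 0.12 ± 0.12 and -0.24 ± 0.12 [-0.42] (adjusted p = 0.36 and 0.078). The LM1 difference of Idh3g was likewise called with only the groups compared (adjusted p = 0.0086), with quality weights and without LM9 replicate 1.

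In the second part of the cycle, Suclg1, the alpha subunit of succinyl-CoA ligase, was at 38.3, 34.8 and 32.6 CPM in LM1 and 81.9, 80.4 and 82.4 in LM1 Nfib KO. Suclg1 in LM9 was at 35.7, 39.5 and 34.2 CPM against 82.1, 80.8 and 79.5 in LM9 Nfib KO. Suclg1 rose by 1.21 ± 0.07 and 1.15 ± 0.07 [1.14] on the log2 scale (adjusted p = 1.8e-08 and 2.9e-08). The ATP-forming beta subunit Sucla2 rose by 0.57 ± 0.05 and 0.57 ± 0.05 [0.60] (adjusted p = 1.3e-06 and 1.3e-06), and the GTP-forming beta subunit Suclg2 was called in the LM1 comparison and not in the LM9 comparison (0.27 ± 0.10, adjusted p = 0.027, 0.051 to 0.077 without any one LM1 library or without LM1 Nfib KO replicate 2, against -0.003 ± 0.10 [-0.12], adjusted p = 0.98). Of its windows 15.8% were shared. Ogdh, oxoglutarate dehydrogenase, differed by -0.13 ± 0.05 and -0.14 ± 0.05 [-0.12] (adjusted p = 0.026 and 0.025, both lost as some single libraries were left out, and the latter at 0.106 with only the groups compared), and Fh1, fumarate hydratase, by -0.24 ± 0.05 and -0.35 ± 0.05 [-0.35] (adjusted p = 0.00093 and 4.9e-05). Total-count scaling turned both Ogdh values positive and brought Fh1 to -0.019 and 0.00069, and Fh1 kept both calls under every other setting tried. Mdh2, mitochondrial malate dehydrogenase, was at 167, 158 and 160.2 CPM in LM1 and 461, 461 and 471 in LM1 Nfib KO. Mdh2 in LM9 was at 165, 202 and 194 CPM against 469, 443 and 455 in LM9 Nfib KO. Its cytosolic counterpart Mdh1 was at 219.6, 228 and 215 CPM in LM1 against 120.4, 117 and 119.9 in its pool. Mdh1 in LM9 was at 223, 214 and 213 CPM against 122, 116 and 117 in its pool. The pair crossed over, with log2 fold changes of 1.52 ± 0.07 and 1.29 ± 0.07 [1.21] for Mdh2 and of -0.89 ± 0.05 and -0.87 ± 0.05 [-0.84] for Mdh1 (largest adjusted p = 1.6e-08). Me1, the cytosolic malic enzyme and a source of NADPH, rose by 1.11 ± 0.10 and 0.91 ± 0.10 [0.78] (adjusted p = 6.2e-07 and 3.3e-06), with 22.8% of its windows shared with other transcripts.

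In the pentose phosphate pathway the oxidative arm was higher and the non-oxidative arm split. G6pdx, glucose-6-phosphate dehydrogenase and the entry to the pathway, was at 86.0, 89.0 and 83.7 CPM in LM1 and 470.2, 456 and 472 in LM1 Nfib KO. G6pdx in LM9 was at 84.8, 70.7 and 74.3 CPM against 463, 459 and 467 in LM9 Nfib KO. Pgd, 6-phosphogluconate dehydrogenase, the later NADPH-forming step, was at 95.5, 94.3 and 91.8 CPM in LM1 against 361, 361 and 362 in its pool. Pgd in LM9 was at 94.8, 112 and 119 CPM against 367, 364 and 359.8 in its pool. Both rose, G6pdx by 2.43 ± 0.06 and 2.60 ± 0.07 [2.68] and Pgd by 1.94 ± 0.07 and 1.75 ± 0.07 [1.66] on the log2 scale (largest adjusted p = 1e-09). Tkt, transketolase of the non-oxidative arm, was at 1049.6, 947 and 1003 CPM in LM1 and 100.4, 98.0 and 105 in LM1 Nfib KO. Tkt in LM9 was at 1009.9, 1187 and 1198 CPM against 104, 99.5 and 99.7 in LM9 Nfib KO. Its log2 fold changes of -3.30 ± 0.07 and -3.48 ± 0.07 [-3.56] (adjusted p = 1.4e-11 and 9.9e-12) were of the size of those of Eno2. Taldo1, transaldolase of the same arm, rose from 88.9 ± 4.81 to 231 ± 6.59 CPM in the LM1 comparison (1.38 ± 0.18, adjusted p = 2.5e-05). In the LM9 comparison it rose by 0.81 ± 0.18 [0.52] (adjusted p = 0.0014), from 87.6, 164 and 156 to 229, 225 and 231 CPM.

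Isoforms of a step were compared by CPM per kilobase of exon, as the share of each in the step's sum; these shares do not depend on library scaling and are given without a test. Hk1 made up 38.7, 37.1 and 37.6% of hexokinase in the LM1 libraries and 77.1, 77.1 and 77.4% in LM1 Nfib KO. In LM9 the Hk1 share was 37.8, 68.8 and 67.5% and in LM9 Nfib KO 77.5, 76.5 and 76.8%, so that LM9 replicates 2 and 3 lay nearer to the knockout-labelled libraries than to LM1. Eno2 held 48.9, 50.6 and 48.7% of enolase in LM1 against 6.73, 6.39 and 5.77% in LM1 Nfib KO, and 49.7, 54.1 and 53.4% in LM9 against 6.35, 6.64 and 6.43% in LM9 Nfib KO, with the reservation on Eno1 above. Mdh1 held 65.4 ± 1.12% (SD, n = 3) of malate dehydrogenase in LM1 and 65.2, 59.5 and 60.3% in the LM9 libraries, against 26.2 ± 0.320% and 26.5 ± 0.214% in their pools. Pdk3 went from 39.6 ± 1.14% of the kinases in LM1 to 73.2 ± 1.08% in LM1 Nfib KO, and from 37.9, 49.5 and 48.6% in the LM9 libraries to 74.1 ± 1.68% in LM9 Nfib KO, within a step whose sum fell from 26.7 ± 1.30 to 10.2 ± 0.0349 CPM per kilobase in the LM1 comparison.

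Slc16a3 supplied 20.4 ± 0.958% of the 2 lactate transporters in LM1 Nfib KO and 19.4 ± 0.391% in LM9 Nfib KO. Ldhb was a minor part of lactate dehydrogenase wherever it was seen, 2.96 ± 0.278% in LM1 and 2.40 ± 0.428% in LM9. Aldoc held 6.24 ± 0.198% of aldolase in LM1, 6.23, 4.15 and 3.98% in the LM9 libraries and 0.361 ± 0.0263% and 0.348 ± 0.0723% in LM1 Nfib KO and LM9 Nfib KO. Pfkl went from 41.4 ± 1.05% to 21.4 ± 0.461% of phosphofructokinase in the LM1 comparison and from 43.2, 30.8 and 30.5% to 21.3 ± 0.489% in the LM9 comparison. Idh1 went from 52.6 ± 2.16% to 36.1 ± 2.16% of the NADP-linked isocitrate dehydrogenases in the LM1 comparison, while their sum fell from 108 ± 1.75 to 19.7 ± 0.255 CPM per kilobase. Sucla2 stayed the larger beta subunit of succinyl-CoA ligase in all libraries, at 74.7 ± 0.972% in LM1, 74.3, 67.9 and 68.8% in the LM9 libraries and 78.5 ± 0.497% and 78.0 ± 1.25% in their pools. Hexokinase and malate dehydrogenase shares depend most on the length used: by the longest transcript Hk1 held 52.8% in LM1 and 86.2% in LM1 Nfib KO, and Mdh1 50.8% and 16.3%.

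**Figure D3:**
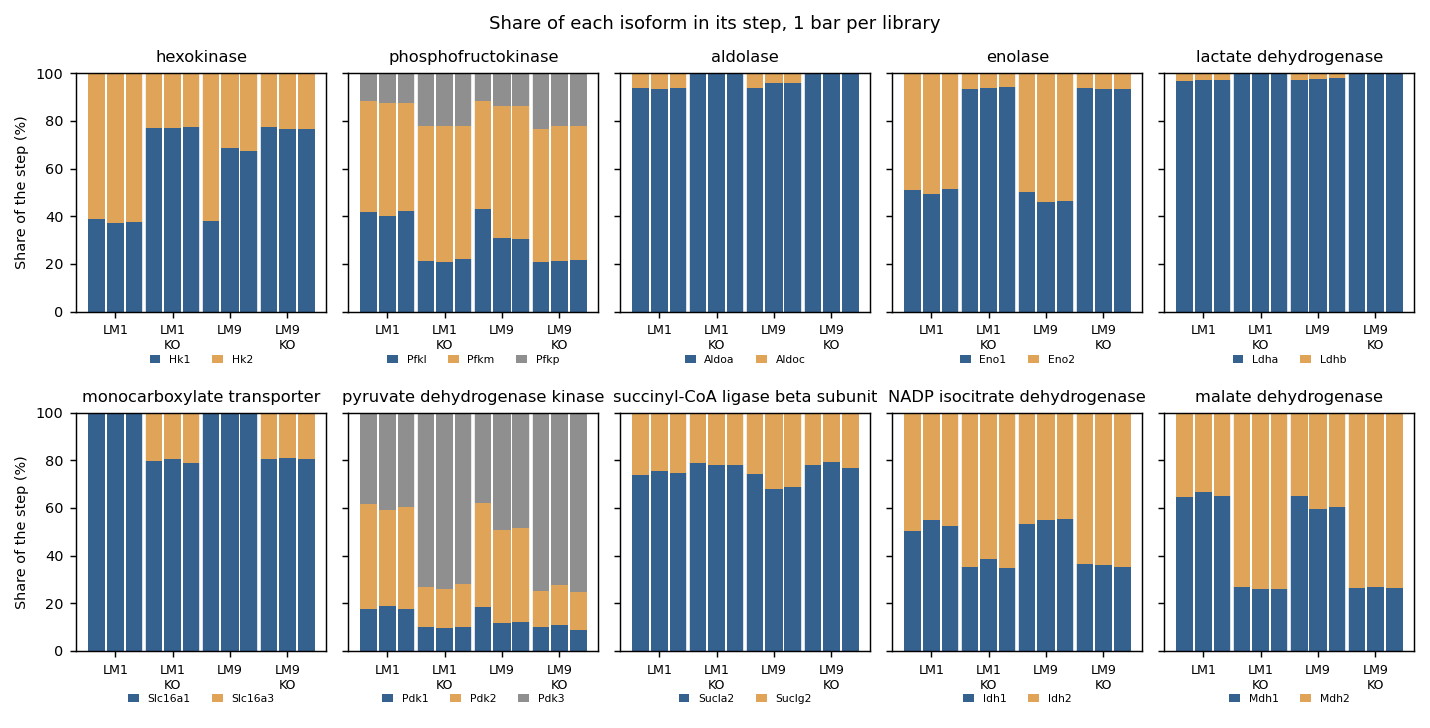
Stacked bars give, for 10 steps with more than 1 isoform, the share of each gene in the step's CPM per kilobase, with 1 bar per library in replicate order. Hk1, Eno1, Pdk3 and Mdh2 take a larger share in the knockout-labelled libraries (KO) than in LM1, and the first LM9 bar looks like LM1.

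Summed over the genes of a block, without scaling, glycolysis and the lactate step took 0.897, 0.856 and 0.871% of all counts in LM1 and 0.639, 0.631 and 0.651% in LM1 Nfib KO, and 0.886, 1.02 and 1.02% in LM9 and 0.628, 0.627 and 0.636% in LM9 Nfib KO. Pyruvate entry took 0.0417 ± 0.00180% and 0.0790 ± 0.000377% in LM1 and LM1 Nfib KO, and 0.0394 ± 0.00100% and 0.0798 ± 0.000796% in LM9 and LM9 Nfib KO. For the TCA cycle the shares were 0.158 ± 0.00239% and 0.226 ± 0.00201% in the LM1 pair and 0.158, 0.143 and 0.144% in the LM9 libraries against 0.224 ± 0.00180% in their pool. As counted, the glycolytic block was therefore smaller, and the pyruvate entry and TCA blocks larger, in each knockout-labelled library than in each parental one. The glycolytic sum leaves out the copies of Pgk1, Pgam1 and Eno1 named above and holds Gapdh at an uncertain level. The TCA block includes the cytosolic Aco1, Idh1, Mdh1 and Me1, and its sum combines genes that rose with genes that fell. The pentose phosphate share was 0.120 ± 0.00485% in LM1 and 0.125 ± 0.00337% in LM9, and 0.128 ± 0.00205% and 0.128 ± 0.000867% in their pools, where Tkt made way for G6pdx, Pgd and Taldo1 and libraries of LM9 and its pool overlapped. On the TMM scale the same sum was lower in the pools, 1269 CPM in LM1 against 1159 in its pool and 1452 in LM9 against 1156 in its pool, so its direction depends on the scale. A sum is led by its abundant genes, and those of glycolysis did not move alike: in the LM1 comparison Aldoa went from a mean of 2990.3 to 582 CPM and Pkm from 1292 to 1673, while the TMM-scaled sum of the block went from 9225 to 5791 CPM.

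**Figure D4:**
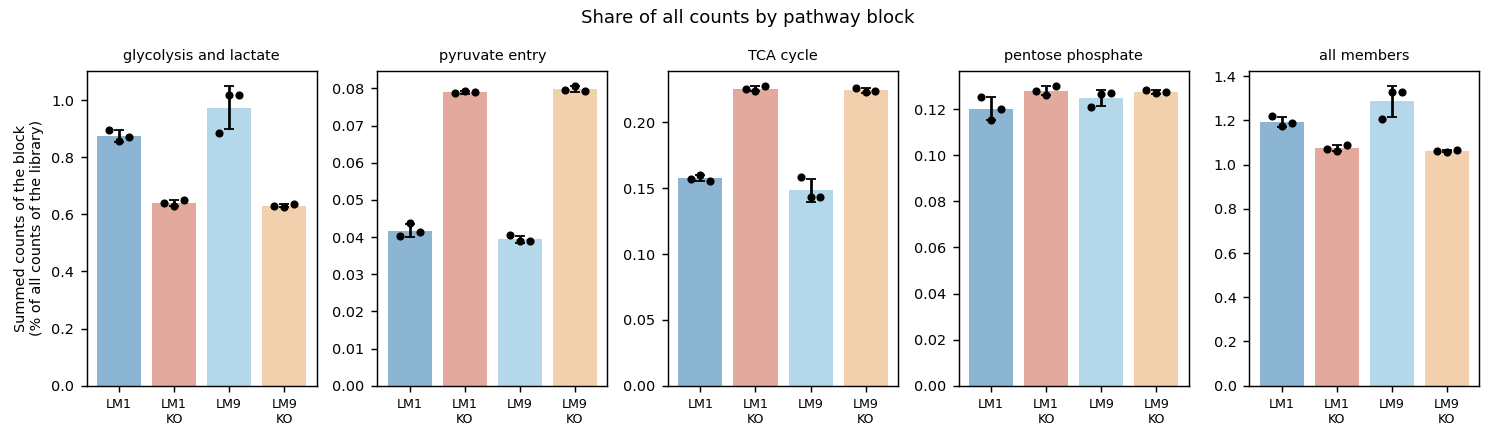
Bars give the mean share of all counts of a library taken by the genes of each block (percent, separate axes from 0), error bars the SD and points the 3 libraries of each group. Glycolysis and lactate is lower and pyruvate entry and the TCA cycle higher in the knockout-labelled groups (KO), and 1 LM9 point lies at the LM1 level in the glycolysis panel.

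By level per kilobase as counted, the parental lines shared an order. Aldoa was first (1027 CPM per kilobase in LM1 and 1213 in LM9), then Pkm (258 and 381), Tpi1 (208 and 308) and Pgk1 (167 and 223). Under the knockout label Pkm came first (335 in LM1 Nfib KO and 331 in LM9 Nfib KO), then Aldoa (199.99 and 196) beside Pgk1 (192 and 195). Pgk1-rs7 carried 115% of the CPM of Pgk1 in LM1, and 118% and 116% in LM1 Nfib KO and LM9 Nfib KO. The places of Pgk1, Pkm, Gapdh and other members with shared sequence are therefore uncertain. G6pdx moved from place 28 of 49 in LM1 to place 4 in LM1 Nfib KO and Tkt from place 7 to place 35.

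The lines and the pools were then compared with each other. Between LM1 and LM9 0 of 49 members passed the adjusted threshold, where 0.00550% of all genes did (a single gene), with 29 members at an unadjusted p under 0.05 by limma-voom and 30 by edgeR (47.6% and 45.4% of all genes). DESeq2 called 21 members after adjustment, beside 31.8% of all genes. The smallest adjusted p of a member was 0.054. As a description, without LM9 replicate 1, 11 members were higher in LM1 and 25 lower, beside 33.4% and 32.4% of all genes. LM9 replicate 1 lay within 0.030 of the LM1 mean at the median member (absolute difference of log2 (CPM + 0.1)) and LM9 replicates 2 and 3 within 0.331 and 0.335. No member of LM9 replicate 1 differed from the LM1 mean by more than 0.5, against 16 and 13 members in replicates 2 and 3.

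LM9 replicate 1 was set aside because it resembled LM1, so leaving it out favours a difference between the lines, and the values without it are a description and not a test. Without that library, Slc2a1 was -0.89 ± 0.04 on the log2 scale in LM1 against LM9, Taldo1 -0.85 ± 0.05, Tpi1 -0.77 ± 0.03 and Eno2 -0.66 ± 0.04, all lower in LM1. Hk2 was higher in LM1 by 1.38 ± 0.04, Idh2 by 0.75 ± 0.04, Idh1 by 0.60 ± 0.05 and Pdk1 by 0.57 ± 0.06. These 8 genes were picked for description after their values were seen. With all 3 LM9 libraries the same differences were -0.59 ± 0.18 for Slc2a1 and 0.90 ± 0.29 for Hk2 (adjusted p = 0.054 for both).

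**Figure D5:**
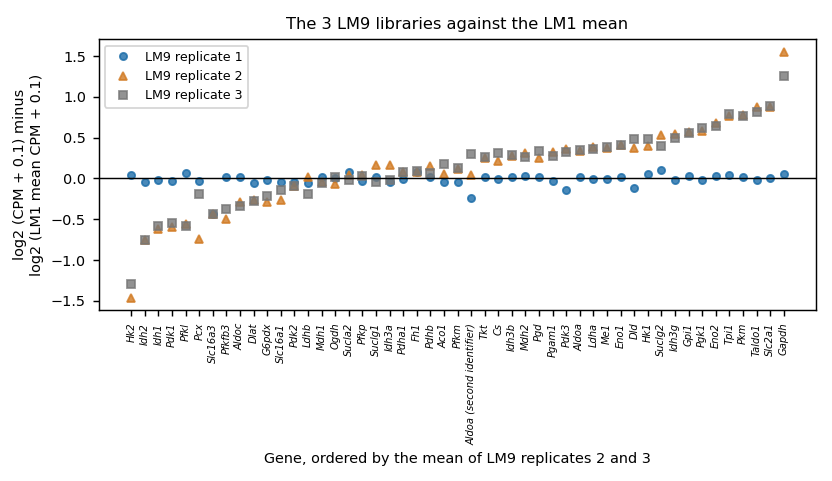
Points give log2 (CPM + 0.1) of each gene in the 3 LM9 libraries minus the same for the LM1 mean, with genes ordered by the mean of replicates 2 and 3. LM9 replicate 1 stays between -0.44 and 0.11, whereas replicates 2 and 3 run together from Hk2 at the lower end to Gapdh at the upper.

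The size of the knockout-label difference was compared between the lines by an interaction term. It was called for 0 of 49 members and 0% of all genes, with 10 members at an unadjusted p under 0.05 by limma-voom, 13 by edgeR and 18 by DESeq2 (24.7%, 20.9% and 24.5% of all genes). As a description under the same reservation, without LM9 replicate 1, 24 members had a higher and 9 a lower value in the LM1 line (27.6% and 29.6% of all genes). In those fits the interaction shares the parental libraries with the LM1 to LM9 comparison, so the 2 results are not separate. Between LM1 Nfib KO and LM9 Nfib KO 0 of 49 members and 0% of all genes were called, with 0 members at an unadjusted p under 0.05 by limma-voom, edgeR or DESeq2 (0.979%, 0.737% and 0.506% of all genes). These shares are smaller than a threshold of 0.05 gives when nothing differs, and the spread used also carries the division within LM9. With quality weights 7.40% of all genes and 0 members had an unadjusted p under 0.05. The 95% confidence intervals from the main fit rest on the same spread. They bound the difference for most genes, for example -0.40 to 0.45 for Slc2a1, -0.13 to 0.15 for G6pdx and -0.16 to 0.17 for Tkt on the log2 scale.

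Of 59 further genes of the same pathways, 42 were listed in the tables, and 21 were higher and 13 lower in the LM1 comparison, 19 and 14 in the LM9 comparison. These are 50% and 31.0%, and 45.2% and 33.3%, of the genes tested, near the shares of all genes (43.1% and 38.1%, and 44.3% and 38.0%). The largest falls among those averaging at least 1 CPM were those of Ldhd, mitochondrial D-lactate dehydrogenase (-4.68 ± 0.22 and -4.26 ± 0.22 [-4.16] on the log2 scale, adjusted p = 3.2e-09 and 5.7e-09), of H6pd, the hexose-6-phosphate dehydrogenase of the endoplasmic reticulum (-4.26 ± 0.24 and -3.61 ± 0.24 [-3.30], adjusted p = 1.4e-08 and 5.8e-08), and of Sdhc, a membrane subunit of succinate dehydrogenase (-1.60 ± 0.05 and -1.59 ± 0.05 [-1.58], adjusted p = 9.3e-11 and 1.1e-10). The largest rises under the same limit were those of 2 further sugar transporters and a ribokinase. Slc2a10 went from 0.109 to 12.7 CPM in the LM1 comparison and from 0.0787 to 13.0 in the LM9 comparison, with 0 to 6 counts in the LM1 libraries, 0 to 7 in the LM9 libraries and at least 461 under the knockout label. Slc2a6 went from 1.74 to 33.1 and from 1.03 to 33.0 CPM (log2 fold changes 4.23 ± 0.16 and 5.03 ± 0.20 [5.31]). Rbks went from 0.0527 to 2.72 and from 0.287 to 2.80 CPM, with 0 to 4 counts in the LM1 libraries and 2 to 13 in the LM9 libraries (largest adjusted p over the 3 genes = 4e-05). No fold is given for Slc2a10 and Rbks, whose parental counts were at or near 0. The limit is a mean over all libraries, so the ranking can leave out a gene at or near 0 under one label. Slc2a4 fell from 33 to 52 counts in the LM1 libraries to 0 to 1 in LM1 Nfib KO. In LM9 it had 31 to 34 counts and in LM9 Nfib KO 0. Hkdc1 rose from 0 to 3 counts in LM1 to 50 to 64 in its pool. In LM9 it had 0 to 1 counts and in its pool 47 to 68.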

How the data were processed

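Counts of reads per gene were deposited for 12 libraries. As the authors describe, single-end 76-nt reads from stranded, poly(A)-selected libraries were aligned with STAR to mm10 and the 5′ ends of reads were counted over the union of a gene's exons with QuasR; the counts deposited by the authors are not normalised, and the treatment of reads that map to several genes is not given in the sources used here. Here they were tested with limma 3.58.1 (voom) after TMM scaling and filterByExpr of edgeR 4.0.16 (minimum count 10, minimum total 15; 18176 genes kept), with one mean per group over all 12 libraries, 5 contrasts and two-sided moderated tests with Benjamini-Hochberg adjustment over all genes. CPM are counts per 1000000 of the TMM-scaled total, and CPM per kilobase uses the exon union of GENCODE M21. Genes were named and placed with that annotation, and promoter sequences were taken from RefSeq (GRCm38.p6). All 48 members are described. Library values are given for those beyond a log2 fold change of 1 with one sign in both lines, and for their isoform partners. Of the related genes averaging at least 1 CPM over all libraries, the 3 largest rises and falls are named. Slc2a4 and Hkdc1, below that limit, are named beside them. The members and lists were chosen with earlier results of these data known. Alternatives were edgeR, DESeq2 1.42.0, median-ratio factors, total counts, no filter, a mean of at least 5 CPM, a replicate block, quality weights, only the groups compared, and each library left out.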

Additional observations from a re-analysis of the deposited data

How the results depend on the processing

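Over the settings tried, 202 counts of members stayed within 1.5 times the reported count and 16 did not. Requiring a log2 fold change beyond 1 gave 11 higher members in the LM1 comparison and 10 in the LM9 comparison. Sample quality weights called 24 members higher and 9 lower for the difference between the lines (28.2% and 29.9% of all genes), where the reported fit called 0, and leaving out single libraries gave 0 to 24 higher and 0 to 9 lower, the upper values without LM9 replicate 1. For LM1 against LM9, DESeq2 gave 2 members higher and 19 lower (11.7% and 20.1% of all genes), total counts 8 and 7 (21.8% and 6.95%), a mean of at least 5 CPM 4 and 17 (21.9% and 17.6%), and quality weights 10 and 24 (32.5% and 31.2%); leaving out single libraries gave 0 to 11 higher and 0 to 25 lower, again with the upper values without LM9 replicate 1. Scaling moved signs near 0: total counts shifted the median over all genes from 0.08 to 0.31 (LM1 comparison) and from 0.13 to 0.49 (LM9 comparison) and gave Pfkm 0.14 and 0.16, Ogdh 0.088 and 0.22 in the 2 comparisons, Ldha 0.075 in the LM1 comparison, and Pgk1 0.18, Pkm 0.19, Idh3g 0.11, Suclg2 0.35 and Fh1 0.00069 in the LM9 comparison. In the LM9 comparison total counts also removed the calls of Hk2 (-0.42, adjusted p = 0.27) and Ldha (-0.069, adjusted p = 0.25). They added calls there of Eno1 (0.46, adjusted p = 1.6e-05) and Dld (0.54, adjusted p = 0.00012). Eno1 in the LM9 comparison was -0.016 with quality weights and -0.018 without LM9 replicate 1. Suclg2 in the LM9 comparison was 0.0030 with no filter and -0.12 to 0.091 as single libraries were left out. Under other settings 1977 log2 fold changes kept their sign and their side of the threshold, 34 lost the call, 21 gained one and 22 changed sign; 192 shares moved by less than 1 SD and 64 by more. Calls lost when a single library was left out were those of Pkm, Ogdh and Suclg2 in the LM1 comparison and of Hk2 and Ogdh in the LM9 comparison; calls gained were those of Pfkm, Pgk1, Ldha and Idh3g in the LM1 comparison and of Pgk1, Pkm and Idh3g in the LM9 comparison, all without LM9 replicate 1, and of Dld in the LM9 comparison without LM9 replicate 3. With only the groups compared, Hk2, Pfkm and Ogdh lost their calls in the LM9 comparison (adjusted p = 0.111, 0.056 and 0.106), and Pgk1, Ldha and Idh3g gained calls in the LM1 comparison. Replicate numbers did not pair the libraries: deviations of same-numbered libraries correlated at -0.088 to 0.041, and with the replicate block 22 members were higher and 22 lower in the LM1 comparison (42.5% and 37.8% of all genes) and 19 and 24 in the LM9 comparison (43.8% and 37.9%), with the Pkm call in the LM1 comparison lost (adjusted p = 0.054). Depth limits the values of Slc16a3 and Ldhb where they are near 0, and shared sequence limits those of the 9 members with at least 10% of their windows shared, Pgk1, Eno1, Pgam1, Me1, Gapdh, Pkm, Ldhb, Suclg2 and Pdha1.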
